A study of Xenopus laevis with 6 samples.

Results

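The genes described here are named for the cytosolic translation factors of the frog Xenopus laevis: the initiation factors eIF1 to eIF6, the elongation factors eEF1 and eEF2, the release factors, and the poly(A)-binding proteins with their partners. Some with such a name encode other proteins, such as the eIF2 kinases, the methyltransferases of elongation factors and the nuclear poly(A)-binding protein. Members were the probe sets whose symbol in the platform annotation starts with the name of such a factor. There were 151 of them among the 32634 probe sets of the table. Of these, 146 carry 1 symbol and stand for 81 genes, counting separately the .L and .S copies, the homeologs left by the genome duplication of this species. The other 5 carry several symbols and are counted but not named. In all, 3 members are array control probe sets and 12 were too dim to test, which left 136 tested probe sets with 77 named genes.

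Embryos at the 4-cell stage had received 10 ng of morpholino (MO), a synthetic antisense oligonucleotide, in each of the 2 dorsal blastomeres. The MO was directed against apcdd1, the gene of a membrane inhibitor of Wnt and BMP signals, in one group and was a control MO in the other. Both groups were kept at 16 degrees C until stage 10.5, the early gastrula, when the dorsal side was cut out and pooled by 10 embryos, giving 3 batches and 3 Affymetrix arrays per group. No strain or clutch is given in the labels, so a p-value here reflects how these batches of embryos varied and may miss variation between clutches. The treatment text of the control samples names the apcdd1 MO, and the grouping follows their titles and genotype labels. Nile Blue crystals marked the ventral side of the apcdd1 MO embryos alone, because the dorsal lip came late in some of them, and this step cannot be told apart from the MO. Median signals of the 6 arrays lay between 44.4 and 45.7.

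Translation starts when eIF2 brings the initiator tRNA to the small ribosomal subunit, where eIF1, eIF1A, eIF3 and eIF5 assemble. The eIF4 factors join this complex to the capped mRNA, and eIF5B joins the large subunit. eEF1A then delivers aminoacyl-tRNAs, eEF2 moves the ribosome by a codon, and eRF1 with eRF3 ends the chain. Cytosolic poly(A)-binding proteins tie the mRNA tail to the cap complex. In the frog embryo the first cell cycles run on maternal mRNAs, so these factors and their oocyte forms are present in the egg.

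Depleted embryos had a lower signal of eif1ad.L, the largest change among these factors, and small or uncalled changes in nearly all of the rest. Of the 136 tested probe sets, 2 were higher, 6 were lower and 128 did not pass the test (limma, Benjamini-Hochberg adjustment over all 19484 tested probe sets, threshold 0.05). The 8 calls are 5.88% of the members, near the 6.62% called over the whole table. Higher calls made up 3.00% of the whole table and lower calls 3.61%. The calls fell on 7 genes: eif1ad.L, eef1g.L, eef2.1.L, eif3a.S and pabpn1l.S were lower on at least 1 probe set, and paip1.S and paip2b.S were higher. The median log2 change over the tested members was -0.04, against 0.00 over all tested probe sets, and 117 of 136 lay between -0.25 and 0.25. For the members that did not pass, the median SE of the log2 change was 0.08. Fewer cells of a type and less RNA per cell cannot be told apart in such pooled tissue.

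In 52 of the 136 members, or 38.2%, the ranges of the groups did not overlap, against 24.7% over the whole table. Of these 52, 38 were lower and 14 higher, against 2492 lower and 2328 higher among the 4820 such probe sets of the whole table. By factor group the ranges did not overlap in 6 of 9 eEF1 probe sets, 3 of 4 eEF2 and 14 of 32 eIF3. The counts were 10 of 24 for poly(A)-binding proteins and partners, 4 of 10 for eIF2 and 8 of 28 for eIF4. They were 0 of 5 for release factors and 0 of 3 for eIF1. These counts are of probe sets, and 31 of the 77 tested genes have several, which can read the same RNA. The 4 eEF2 probe sets are all of eef2.1.L, and the 32 of eIF3 stand for 15 named genes. Signals of the members also varied less within a group than usual: the median SD of the log2 signal was 0.08 for control and 0.07 for apcdd1 MO arrays, against 0.10 and 0.09 over all tested probe sets. The parts of this smaller spread and of the repeated probe sets in the count were not tested.

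Quality and tissue measures also moved between the groups. For gapdh, the ratio of the 3' to the 5' control probe set, a measure of RNA integrity, averaged 1.77 ± 0.03 on control arrays and 1.87 ± 0.07 on depleted ones (SD, n = 3), and the ranges do not overlap. Of 18 tested dorsal markers, counting homeologs separately, 5 were lower and 0 higher, beside 3.61% lower over the whole table. All 18 had a log2 change below 0, with a median of -0.18, against 9728 of all 19484 tested probe sets. Some of the 18 were near 0, such as sia2.S (-0.004 ± 0.29 SE). The summed signal of the 19 on the array ran from 19187 to 22434 in control and from 17090 to 17872 in depleted arrays. Of 14 tested ventral and posterior markers 3 were higher and 0 lower, beside 3.00% higher over the whole table. The 3 were all ventx genes. In 9 of the 14 the log2 change was below 0, and the median was -0.03. Summed signals of this list overlapped, but vegt.L and vegt.S gave most of them, with control means of 4716 and 5341. vegt is not restricted to ventral or posterior tissue, and both of its genes count among the 9 below 0. Neither vegt gene passed (log2 changes -0.05 and -0.01), so the overlap says little about the other markers. The lowest signal of any probe set was 3.56, so the absence of a marker at 0 does not show that each was detected. The markers evx1.L, msx1.L, msx1.S, szl.L and the frzb entry without a homeolog letter were too dim to test. The part of these measures in the results below was not tested.

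eif1ad encodes a small protein with an eIF1A domain. In human cells it is found on late precursors of the small ribosomal subunit, and it is not a core initiation factor. Its 1 probe set, Xl2.48751.1.S1_at, is annotated to eif1ad.L, and there was none for the S homeolog. The control arrays read 323, 306 and 343, and the depleted arrays 119.9, 121.0 and 122.5. The groups lie far apart, and the depleted arrays differ by less than the control arrays do. Mean signals were 324 ± 18.5 (control) and 121 ± 1.28 (apcdd1 MO; SD, n = 3), a fall of 2.67-fold, with a log2 change of -1.42 ± 0.07 (SE) and adjusted p = 9.9e-06 in limma. Among the 19484 tested probe sets this was the 14th lowest log2 change. It was called under all 15 alternative settings, with log2 changes from -1.46 to -1.07.

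The other 135 members ran from -0.95 to 0.54 in log2 change, with a median of -0.04, and eif1ad.L was the only member called with at least a 2-fold change. This distance is a description, since eif1ad was singled out with its result known. No member was named for eIF1A itself. The 4 probe sets of the eIF1 and eIF1A group were all of eif1b, and the 3 tested ones were not called. eif1b, which encodes a form of eIF1, the start codon selection factor, read 4002, 4166 and 4392 in control and 4144, 4232 and 4155 in depleted arrays on its brightest probe set of eif1b.L. These groups overlap, with a log2 change of -0.002 ± 0.05 (SE), and eif1b.S gave -0.04 ± 0.06. A further probe set of eif1b.L, left out as dim, read 13.7, 16.6 and 17.2 in control and 12.6, 8.78 and 10.1 in depleted arrays. In the fit without the filter, which called 3.77% of all probe sets, it was the only one of the 12 dim members called (log2 change -0.60 ± 0.14 SE, limma adjusted p = 0.045), at signals not shown to be above background.

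**Figure D1:**
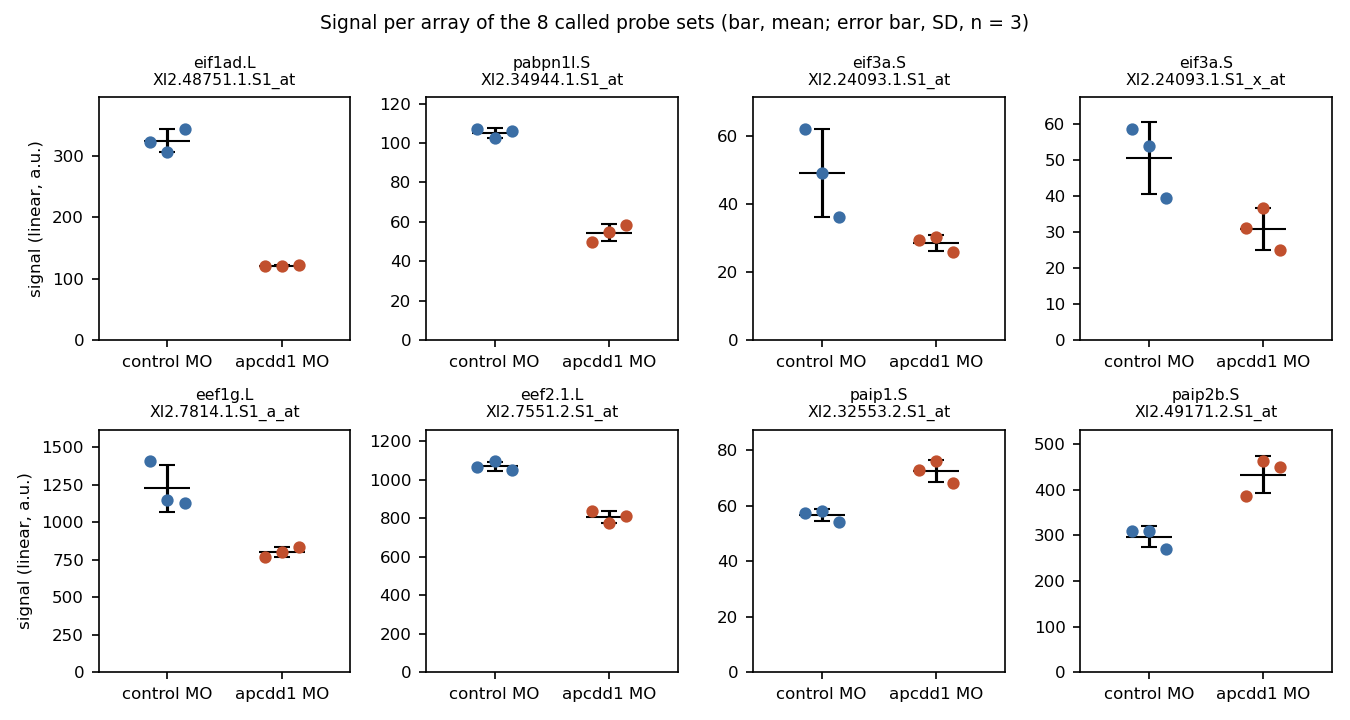
Signal per array (linear, arbitrary units) of the 8 called probe sets in 3 control MO arrays (blue) and 3 apcdd1 MO arrays (orange), with mean and SD. The groups do not overlap in any panel, and eif1ad.L, from 324 to 121, has the largest fold change of the 8.

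eIF2 carries the initiator tRNA and is the target of the stress kinases. None of the 10 tested probe sets of eIF2 and of the alternative delivery factors eif2a and eif2d passed, with log2 changes from -0.31 to 0.03. The lowest p was that of eif2s1.S, the alpha subunit that those kinases phosphorylate. It read 444, 519 and 491 in control and 361, 441.5 and 374 in depleted arrays, which do not overlap (-0.31 ± 0.09 SE, limma adjusted p = 0.088). The other 3 tested probe sets of eif2s1.S gave -0.20, -0.10 and -0.03. The gamma subunit eif2s3.S stood at 1320 ± 11.96 and 1348 ± 72.5 (SD, n = 3), with overlap. For eIF2B, which recharges eIF2 with GTP, all 4 probe sets were uncalled, from -0.14 for eif2b1.L to 0.07. The kinase genes eif2ak1.L (HRI) and eif2ak2.L (PKR) gave 0.12 ± 0.10 and -0.02 ± 0.08 (SE) and did not pass.

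eIF3 is the large scaffold of the small subunit during initiation, and eif3a its largest subunit. Of 32 tested eIF3 probe sets 2 were lower, 0 were higher and 30 did not pass, with a median of -0.04. The calls are 6.25% of these probe sets, near the 6.62% of the whole table. Both calls were dim probe sets of eif3a.S. Xl2.24093.1.S1_at read 62.0, 49.2 and 36.3 in control and 29.6, 30.4 and 25.9 in depleted arrays, a log2 change of -0.75 ± 0.18 (SE, limma adjusted p = 0.039). Its companion Xl2.24093.1.S1_x_at, which by name was designed on the same sequence, gave -0.71 ± 0.18 (adjusted p = 0.047), so the 2 are not separate evidence. The groups do not overlap, but control 3 lies near the depleted arrays. The third probe set of eif3a.S stood at 419, 446 and 449 against 400.5, 444 and 463.5, with a log2 change of -0.01 ± 0.07. Both calls ended without control 1, control 2, depleted 1 or depleted 3 (limma adjusted p up to 0.18), and the first also without depleted 2 (0.093). Without the trend and robust options neither was called (limma adjusted p = 0.052 and 0.062), nor was the first with 64 added to the signal (0.058). The 8 probe sets of eif3a.L ran from -0.22 to 0.17 and none was called. eif3j.S, a loosely bound subunit and the brightest of the group, stood at 4644 ± 75.8 and 4530 ± 36.7 (SD, n = 3; -0.04 ± 0.04 SE).

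The eIF4 factors bind the cap and unwind the mRNA. None of their 28 tested probe sets passed (median -0.05). The groups did not overlap in 8, or 28.6%, near the 24.7% of the whole table. The lowest p was that of the helicase gene eif4a2.L, which read 155, 205 and 180.3 in control and 146, 144 and 124.5 in depleted arrays (-0.38 ± 0.11 SE, limma adjusted p = 0.084). eif4a3.1.S, whose product belongs to the exon junction complex rather than to initiation, stood at 4258 ± 85.2 and 4135 ± 113 (SD, n = 3; -0.04 ± 0.04 SE). eif4ebp2, the gene of a 4E-BP that holds the cap-binding protein eIF4E inactive, gave near-equal values on both homeologs. eif4ebp2.L read 245, 199 and 213 in control and 176, 186 and 193 in depleted arrays. eif4ebp2.S read 217, 191 and 200.4 against 175, 168 and 170.0. The groups are apart for both, with log2 changes of -0.24 ± 0.09 and -0.24 ± 0.08 (SE), and neither passed (limma adjusted p = 0.18 and 0.10). The transporter gene eif4enif1.S, which encodes a binder of eIF4E, gave 0.00 ± 0.08.

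Factors of subunit joining and of the first peptide bond gave no call among 6 probe sets. eif5.S, the gene of the GTPase activator of eIF2, read 693, 727 and 678 in control and 598, 655 and 527 in depleted arrays (-0.24 ± 0.08 SE, limma adjusted p = 0.13). eif6.S, whose product keeps free large subunits from joining, stood at 1466 ± 67.9 and 1388 ± 86.3 (SD, n = 3), with overlap. eif5b.L read 300.5, 286 and 107.5 in control and 275, 258 and 333 in depleted arrays, with control 3 far below the rest and a log2 change of 0.45 ± 0.39 (SE). Control 3 was lower than both other control arrays by at least 0.5 on the log2 scale in 5 members, eif5b.L, eif4g3 and 1 probe set each of eif3a.L, eif4e3.S and paip2b.L. Control 1 was higher than both others by that much in 2, and no depleted array stood apart so.

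eEF1A brings aminoacyl-tRNA to the ribosome, and eEF1B, which includes the gamma subunit encoded by eef1g, reloads it with GTP. Of 9 tested eEF1 probe sets 1 was lower (11.1%, beside 6.62% called over the whole table) and 0 were higher. eef1g.L read 1405, 1146 and 1127 in control and 768, 799 and 834 in depleted arrays. The lowest control array lies well above the highest depleted one, and control 1 is the highest of all. The signal fell from 1226 ± 155 to 800.3 ± 32.8 (SD, n = 3), 1.53-fold, with a log2 change of -0.61 ± 0.09 (SE, limma adjusted p = 0.0028). Its homeolog eef1g.S read 842, 799 and 794 against 788, 778 and 794, a log2 change of -0.04 ± 0.06 that did not pass. eef1b2.L, the gene of another exchange subunit, stood at 3129 ± 85.7 and 3061 ± 148 (SD, n = 3). The genes of the oocyte form of eEF1A had log2 changes of opposite sign that did not pass, eef1a1o.S with -0.23 ± 0.06 (SE, adjusted p = 0.066 in limma) and eef1a1o.L with 0.08 ± 0.05.

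eEF2 is the translocase of the ribosome. Its gene eef2.1.L had 4 tested probe sets, of which 1 was called. Xl2.7551.2.S1_at read 1065, 1097 and 1052 in control and 837, 774 and 812 in depleted arrays, without overlap. This is a log2 change of -0.41 ± 0.06 (SE, limma adjusted p = 0.0026). The brightest probe set, Xl2.7551.1.S1_a_at, read 1861, 1872 and 1903 against 1840, 1839 and 1770, a log2 change of -0.05 ± 0.05, and the others gave -0.06 ± 0.06 and -0.20 ± 0.13. The call therefore holds for 1 of the 4 probe sets, and which of them follows the whole transcript is not known from the files. The methyltransferase genes of the elongation factors, eef1akmt1.S and eef1aknmt.S, gave 0.07 ± 0.07 and 0.18 ± 0.09 (SE) and did not pass.

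Release factor genes did not pass on any of 5 probe sets. etf1.S, which encodes eRF1, read 3433, 3044 and 2279 in control and 3139, 2723 and 3298 in depleted arrays, with overlap and control 3 lowest. gspt1.L, one of the eRF3 genes, gave -0.15 ± 0.09 (SE) on its brightest probe set and 0.07 and -0.04 on the others.

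**Figure D2:**
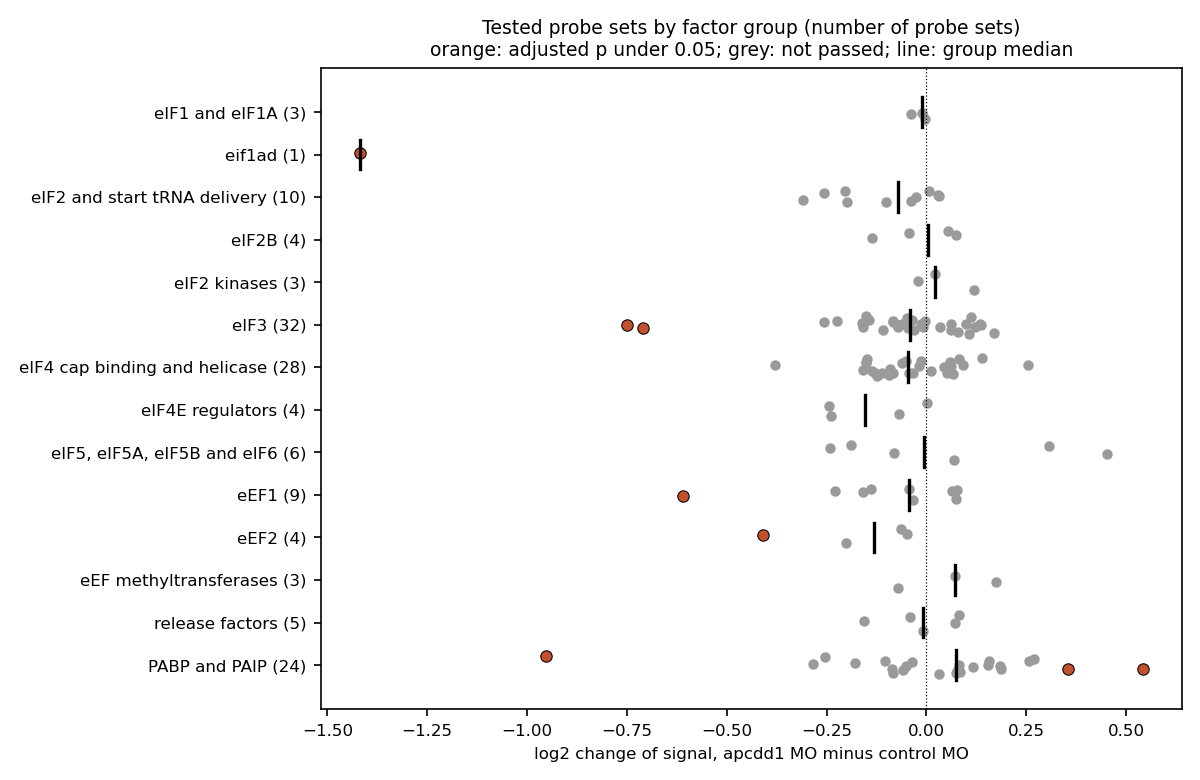
Log2 change of signal (apcdd1 MO minus control MO) of the 136 tested probe sets by factor group, with the number of probe sets beside each name, called probe sets in orange, others in grey and the group median as a line. Group medians other than that of eif1ad (-1.42) lie between -0.15 and 0.08.

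Poly(A)-binding proteins and their partners held 3 of the 8 calls, in both directions. Of 24 tested probe sets 1 was lower, 2 were higher and 21 did not pass, with a median of 0.08. The calls are 12.5% of these probe sets, beside 6.62% called over the whole table. pabpn1l encodes an embryonic relative of the nuclear poly(A)-binding protein. On Xl2.34944.1.S1_at, pabpn1l.S read 107, 102 and 106 in control and 50.03, 54.8 and 58.7 in depleted arrays. The groups are far apart, with a fall of 1.93-fold, a log2 change of -0.95 ± 0.09 (SE) and adjusted p = 2.8e-04 in limma. Its other probe set, Xl2.11706.1.S1_s_at, whose ending marks a design that can bind related transcripts, read 88.7, 79.0 and 78.5 against 67.0, 69.5 and 69.6 (-0.25 ± 0.09, adjusted p = 0.14). The homeolog pabpn1l.L gave -0.18 ± 0.09 and -0.10 ± 0.09 and did not pass.

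paip2b belongs to the PAIP2 family, whose members bind poly(A)-binding protein and repress translation. On Xl2.49171.2.S1_at, paip2b.S read 309, 310.3 and 270.5 in control and 386.5, 462 and 449 in depleted arrays. All depleted arrays are higher, by 1.46-fold on average (log2 change 0.54 ± 0.09 SE, limma adjusted p = 0.0063). Its brightest probe set read 2035, 1884 and 1971 against 2353, 2157 and 2201, also apart, with 0.19 ± 0.06 and adjusted p = 0.082. The third gave 0.03 ± 0.08. paip2b.L stood at 3050 ± 56.2 and 2974 ± 57.5 (SD, n = 3; -0.04 ± 0.04 SE), with overlap.

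paip1 encodes a partner of poly(A)-binding protein that stimulates translation in mammals. On its dimmer probe set paip1.S read 57.5, 58.0 and 54.1 in control and 73.0, 76.0 and 68.0 in depleted arrays, a log2 change of 0.36 ± 0.09 (SE, limma adjusted p = 0.045). Its brighter probe set gave -0.09 ± 0.07 and did not pass. The call of paip1.S ended when any 1 array was left out (adjusted p 0.077 to 0.14 in limma), without the filter (0.063) and with the replicate block (0.081). Both homeologs of pabpn1, the nuclear poly(A)-binding protein gene, had their depleted arrays above the control arrays on the brightest probe set. That of pabpn1.S, Xl2.4584.1.S1_s_at, has the ending of a design that can bind related transcripts. It read 2741, 2590 and 2297 in control and 3228, 2928 and 2942 in depleted arrays (0.26 ± 0.07 SE, limma adjusted p = 0.066). pabpn1.L read 1031, 1064 and 1049 against 1185, 1208 and 1111 (0.16 ± 0.06, adjusted p = 0.16). Of the other tested probe sets, pabpn1.L gave 0.08 on 1, and pabpn1.S 0.12, 0.08 and 0.08 on 3, all with overlapping groups, and 0.18 on a dim one without overlap, and none passed.

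**Figure D3:**
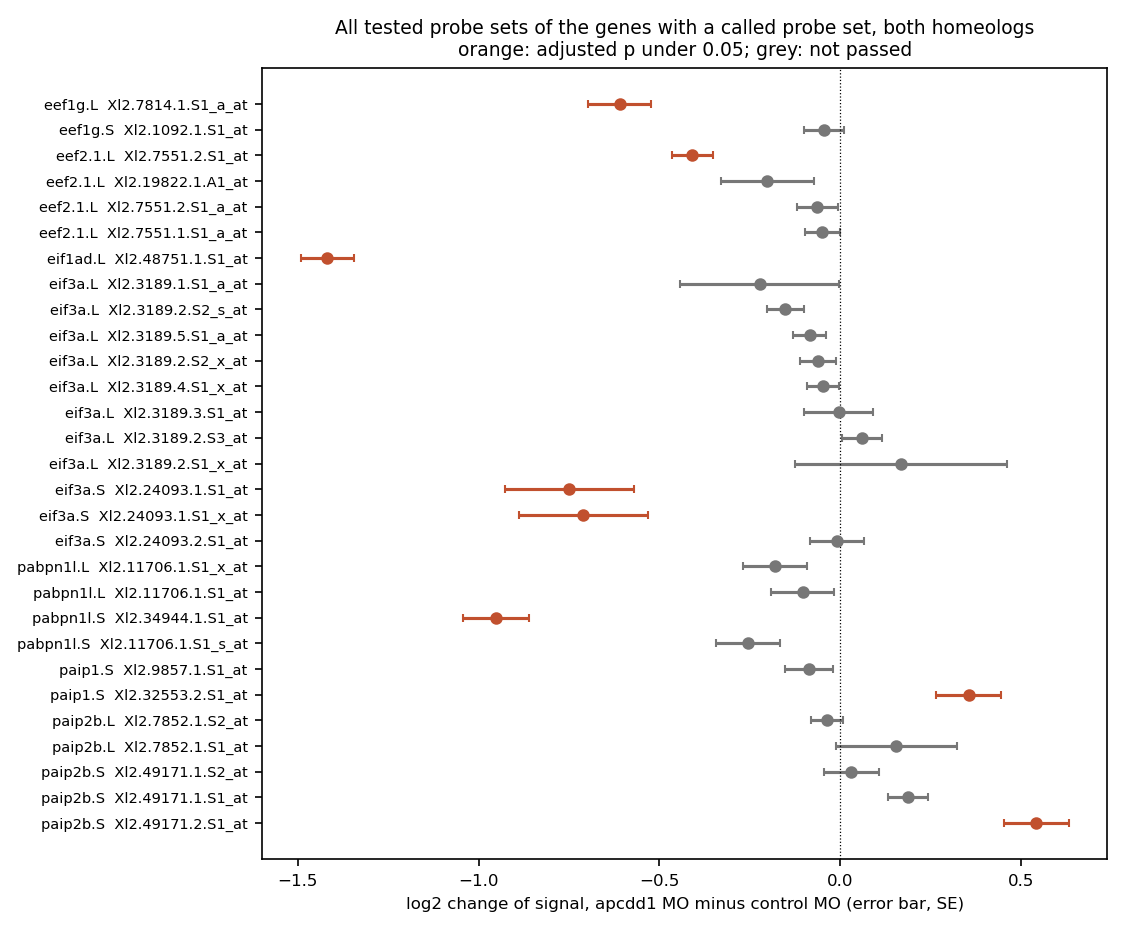
Log2 change with SE of all tested probe sets of the genes that have a called one, with both homeologs where measured (orange, adjusted p under 0.05). eif1ad.L and eef1g.L were measured by 1 probe set each, and the other 5 called genes each have a probe set that did not pass.

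Homeologs were compared side by side on the brightest probe set of each. Of 18 genes with both measured, 9 had both log2 changes below 0, 3 both above 0, and 6 had opposite signs. In 3 genes the log2 changes differed by more than 0.25: pabpn1l (-0.18 for L and -0.95 for S), eef1g (-0.61 and -0.04) and eef1a1o (0.08 and -0.23). For pabpn1l this rests on the choice of probe set: the other of pabpn1l.S, with a mean signal of 75.4 against 79.8, gave -0.25. No gene had both homeologs called. The difference between homeologs was not tested, and probe sets of one homeolog may bind the other's RNA. By chromosome set, 3 of 64 tested L probe sets (4.69%) and 5 of 66 tested S probe sets (7.58%) were called. Both shares are near the 6.62% of the whole table.

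Other genes of the translation machinery were read on the brightest probe set of each gene. In the list of late maturation of the small subunit, where the human eIF1AD protein is found, 2 of 17 tested genes were higher and 1 was lower, with a median of -0.002. The RIO kinase gene riok3.S was higher, at 68.4, 64.6 and 63.4 in control and 130.3, 113 and 93.8 in depleted arrays (0.77 ± 0.12 SE, limma adjusted p = 0.0046), and 2 further probe sets of it were called higher too. usp16.L, which encodes a deubiquitinase, was higher (0.33 ± 0.06, adjusted p = 0.015) and tsr1.L, an assembly factor gene, lower (-0.31 ± 0.07, adjusted p = 0.039). The call of usp16.L ended without control 2 (adjusted p = 0.061), and that of tsr1.L without control 2, control 3 or any of the depleted arrays (up to 0.15). The call of tsr1.L also ended without the filter (limma adjusted p = 0.053), with the replicate block (0.081) and without the trend and robust options (0.059).

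The integrated stress response is the pathway that starts from phosphorylated eIF2. In its list 2 of 10 tested genes were higher and 1 was lower, with a median of 0.19. The 7 that did not pass ran from -0.07 (shmt2.L) to 0.39 (slc3a2.S), with atf4.L at 0.002 ± 0.06 (SE). Of the 10, 8 had a log2 change above 0 and 2 below. The ranges of the groups did not overlap in 7, of which 6 were higher and 1 lower, or 70.0% against 24.7% over the whole table. ddit3.L and slc3a2.L were too dim to test. The gene called lower was ppp1r15b.L, which encodes the partner of the phosphatase that resets eIF2. It read 366, 375 and 304 in control and 242, 236 and 259 in depleted arrays (-0.50 ± 0.09 SE, limma adjusted p = 0.010), and the call ended without control 2 (0.063) or depleted 2 (0.051). The genes called higher, sesn2.S (0.89 ± 0.09) and gadd45a.S (0.53 ± 0.07), are also known p53 targets, and a part of p53 was not tested. In the TOR and eIF4E list 3 of 18 were higher, sesn2.S, sesn1.L (0.65 ± 0.08) and ddit4.S (0.23 ± 0.05), and 0 were lower. The list had 9 log2 changes below 0 and 9 above, with a median of 0.006. The 3 called genes encode TOR inhibitors, but other inhibitor genes of the list did not pass. These were sesn2.L (0.12), sesn3.L (0.26), akt1s1.L (0.08) and akt1s1.S (0.04). The probe set of sesn2.L read brighter than that of sesn2.S, which does not show which homeolog has more RNA. The call of ddit4.S ended without any array other than control 1 (adjusted p up to 0.11 in limma) and without the trend and robust options (0.12).

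In the list of maternal RNA control 1 of 26 was higher, lsm14b.L, the gene of an RNA-storage protein (0.34 ± 0.06 SE), and 1 was lower, dazl.L (-0.68 ± 0.11), a germ cell RNA-binding protein gene. The call of lsm14b.L ended without control 2 (limma adjusted p = 0.057), and its homeolog lsm14b.S gave -0.01 ± 0.07 (SE) and did not pass. Of 11 tested genes of ribosome rescue and recycling, 3 of mitochondrial translation factors and 2 of the hypusine pathway of eIF5A, 0 passed in limma, with 0, 1 and 0 at an unadjusted p under 0.05. Among 10 tested members listed as TOP mRNAs of mammals, whose translation follows TOR, 1 was lower, eef1g.L, 0 were higher, and the median was 0.01. This list is partial, since 7 of its 10 gene names were matched. The eef1a1o genes and eef2.1.L, which was called lower on 1 probe set, are not in it. The counts of all these lists stand beside 6.62% called over the whole table, which covers all tested probe sets rather than the brightest of each named gene. sesn2.L and sesn2.S are counted in both the integrated stress response list and the TOR and eIF4E list.

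**Figure D4:**
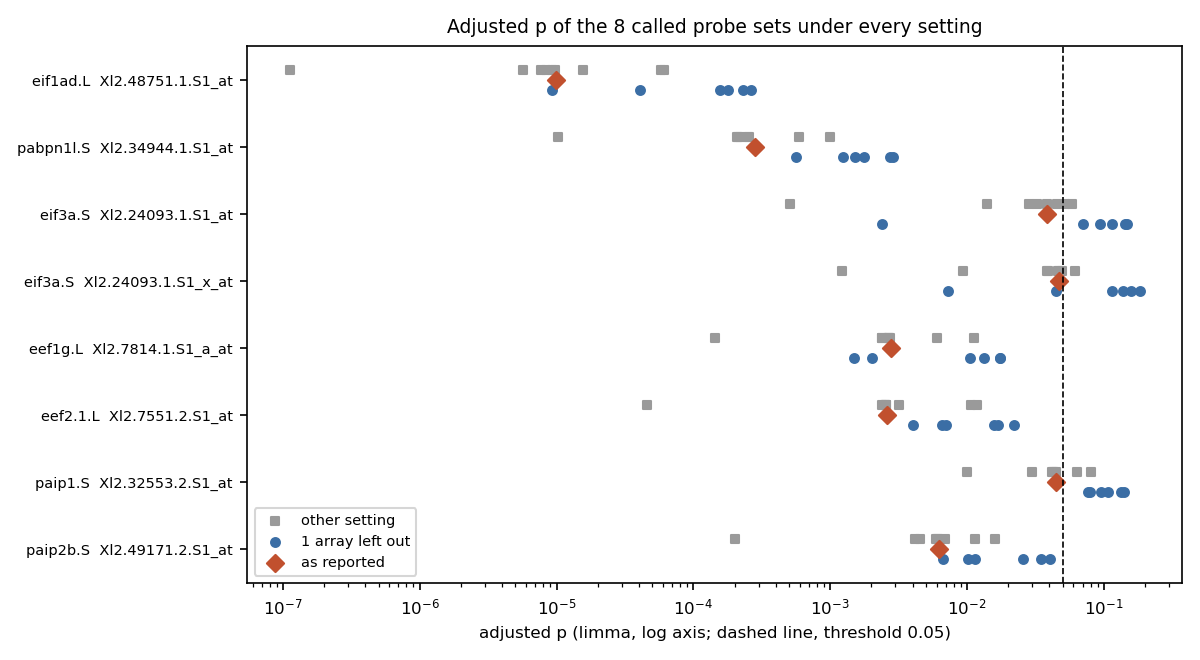
Adjusted p in limma (log axis) of the 8 called probe sets as reported (diamonds), with 1 array left out (circles) and under other settings (squares), with the threshold of 0.05 dashed. eif1ad.L, pabpn1l.S, eef1g.L, eef2.1.L and paip2b.S stay below the threshold wherever they were tested, while eif3a.S and paip1.S cross it.

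With limma's array weights 33 members were called, 8 higher and 25 lower, beside 22.8% of the whole table. The calls of eif1ad.L, eef1g.L, eef2.1.L on Xl2.7551.2.S1_at and paip2b.S on Xl2.49171.2.S1_at held in all 15 alternatives, and that of pabpn1l.S in the 14 that tested it.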

How the data were processed

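Signals of 6 Affymetrix arrays were used as the authors deposited them, as linear intensity values per probe set; the submitters' processing notes name MAS5 without a version, and its scaling is not given in the sources used here. The 160 control probe sets were set apart. Signals were raised to at least 1 (0 values moved) and log2-transformed, and the dimmest probe sets, 12990 whose log2 signal averaged below 4.48 (the 40th percentile, a signal of 22.3), were left out. The 3 apcdd1 MO arrays were set against the 3 control MO arrays in limma (version 3.58.1, R 4.3.3; eBayes with trend and robust options, two-sided, Benjamini-Hochberg adjustment). With 3 arrays a group, 0.1 is the smallest p that permutation allows. The number of arrays limits the precision.

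Names come from the platform annotation; 145 of the 146 members with 1 symbol had their gene number in the RefSeq table of Xenopus_laevis_v10.1. Members, factor groups and lists were chosen with earlier results of these data known. Named genes are eif1ad, every gene with a called probe set and its homeolog, and per factor group the brightest and the lowest p, and called genes of the lists. eif4ebp2.L, eif5b.L, eif4e3.S, eif4g3, eef1a1o, pabpn1 and the dim eif1b.L probe set fall outside that rule and were chosen after their values were seen. Of the lists, sesn2.L, sesn3.L, akt1s1, atf4.L, shmt2.L, slc3a2, ddit3.L, lsm14b.S, sia2.S, vegt and the dim markers are also named without being called. Figures were drawn in matplotlib 3.10.9.

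No sequence is printed, since no sequence table was used here.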

Additional observations from a re-analysis of the deposited data

How the results depend on the processing

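The 15 alternatives changed the normalization, log offset, filter, replicate block, variance model or array weights, or left out 1 array. The 1289 calls over the whole table became 4449 with array weights and 669 to 1430 with 1 array left out, the lowest without control 2. Members higher were 1 without the filter, 1 with the filter at the 60th percentile and 8 with array weights, against 2, and 1 to 3 with 1 array left out. Members lower were 3 at the 60th percentile and 25 with array weights, against 6, and 4 to 7 with 1 array left out. The stricter filter leaves out the called probe sets of pabpn1l.S, paip1.S and eif3a.S. Linked genes called were 7 higher and 3 lower, 16 and 12 with array weights, and 4 to 10 and 1 to 4 with 1 array left out. The cause of the array-weight counts was not tested. Same-numbered arrays correlated in their deviations from the group means with r = 0.05, 0.02 and -0.27. Differently numbered arrays gave r from -0.24 to 0.21, so these values cannot tell whether the numbers pair the samples. The replicate block gave 1101 calls over the whole table, with 2 members higher and 6 lower. Of the 8 called probe sets it lost paip1.S, and pabpn1.S was called in addition (limma adjusted p = 0.047).

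Signs turned only in probe sets that were not called. With other settings, eif1b.L gave 0.021 (quantile normalization) and 0.0023 (array weights), eif4enif1.S -0.0028 (median centring), eif3a.S 0.00084 (quantile) and 0.0031 (array weights), and eif3a.L 0.0029 (quantile). With 1 array left out, log2 changes ran from -0.066 to 0.0036 for eef1b2.L, -0.034 to 0.033 for eif1b.L, -0.088 to 0.011 for eif1b.S, -0.066 to 0.0056 for eif2ak2.L, -0.059 to 0.071 for eif4enif1.S, -0.087 to 0.21 for etf1.S, -0.053 to 0.053 for eif3a.S on its brightest probe set, -0.0501 to 0.29 for paip2b.L on Xl2.7852.1.S1_at, and -0.101 to 0.081 and -0.1202 to 0.503 for 2 probe sets of eif3a.L. Signals near the filter's 22.3 were not shown to be above background.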
